A study of Mus musculus with 10 samples.

Results

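The PPAR, RXR and LXR nuclear receptors and the PGC-1 coactivators were followed here as 10 genes, chosen by symbol from the 39017 genes of the count table: the peroxisome proliferator-activated receptors Ppara, Ppard and Pparg, the retinoid X receptors Rxra, Rxrb and Rxrg, the liver X receptors Nr1h2 (LXR beta) and Nr1h3 (LXR alpha), and the coactivators Ppargc1a and Ppargc1b. All 10 were in the table and all 10 passed the filter on low counts. The rule uses gene symbols and no measured value. The RNA came from lung tumours of male C57BL/6 mice, 5 of the group labelled KP (controls) and 5 of the group labelled KPG1, which is homozygous fl/fl for Slc2a1, which encodes the glucose transporter Glut1. The genotype label of the controls reads heterozygous fl/wt, whereas another label calls them WT, so the labels leave unclear whether the controls carried 1 floxed copy. All tumours were started by intratracheal adenovirus carrying Cre under the SPC promoter, a promoter of alveolar type 2 cells, and were collected at 18 weeks and 6 days. Engineered alleles that both groups share to start the tumours are not reported here. The sequenced cells were the fraction left after depletion with beads against CD45, so blood vessel, stromal and any remaining immune cells, in which this Cre need not act, could contribute RNA. Nothing in the labels says whether each tumour came from a separate mouse, and p-values then measure the spread between these samples only.

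PPARs, LXRs and many other nuclear receptors bind DNA as pairs with an RXR and change transcription when a lipid ligand is bound. PPAR alpha drives genes of fatty acid oxidation, PPAR gamma drives genes of lipid storage and is also active in alveolar macrophages and lung epithelium, and PPAR delta is broadly expressed. LXRs sense oxysterols and drive cholesterol efflux and fatty acid synthesis, the latter a source of surfactant lipid in alveolar type 2 cells. PGC-1 alpha and PGC-1 beta dock on these and other receptors and raise mitochondrial gene expression. The comparison of KPG1 with KP asks how the RNA of these regulators differed between tumours of the 2 genotypes.

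Read totals ran from 32427029 to 49534284 assigned reads per tumour. Slc2a1 itself was at 6.16 to 6.99 log2 CPM (read counts scaled to the library total, on a log2 scale) in KP and at 5.35 to 6.06 in KPG1, without overlap. Its mean difference was -1.01 log2 units (exact permutation test, two-sided, p = 0.00794), so KPG1 tumours still held 49.2% of the KP level on the CPM scale. In the fit across all genes its limma adjusted p was 0.0675, and 0.0220 without KP 5. Ptprc, which encodes CD45, was at a mean of 7.39 CPM with at least 211 reads in each tumour. The tumour KP 5 stood apart from the other controls: along the first principal component of all tested genes, which held 28% of the variance, KP 1 lay at -74.0 and KP 5 at 71.8, with the remaining 8 tumours between them. The labels also number the samples: KPG1 tumours carry 1, 4, 5, 9 and 10, and KP 1 to KP 4 carry 11, 12, 15 and 16, while KP 5 carries 6, inside the KPG1 range. What the numbers stand for is not stated, and apart from KP 5 an effect of them and of the genotype cannot be told apart. With the number as a covariate, the log2 fold change was 0.15 for Ppara, -0.15 for Pparg, 0.77 for Ppargc1a and -0.35 for Rxra. Values of the 10 genes that rest on KP 5 are given with and without it, and those of other genes in part.

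Promoter windows of 3 of the genes are shown because Ppara and Pparg varied in opposite directions between tumours and Ppargc1a had the highest fitted fold change of the 10 genes. They are RefSeq sequences of build GRCm38, 250 bases before a start annotated there, 5' to 3' on the gene's strand. Those starts need not be the outermost of the gene: the Ppara window and the second Pparg window lie inside the GENCODE span given for the gene, and the first Pparg window runs across its edge. Capitals mark, on either strand, the nuclear receptor half-site AGGTCA, the GC box GGGCGG and the cyclic AMP response element half-site TGACG. The Ppargc1a window is chr5:51567726-51567975 (minus strand), the Ppara window is chr15:85735526-85735775 (plus strand), and 2 of the 3 Pparg windows are chr6:115360894-115361143 and chr6:115362099-115362348 (plus strand).
Ppargc1a: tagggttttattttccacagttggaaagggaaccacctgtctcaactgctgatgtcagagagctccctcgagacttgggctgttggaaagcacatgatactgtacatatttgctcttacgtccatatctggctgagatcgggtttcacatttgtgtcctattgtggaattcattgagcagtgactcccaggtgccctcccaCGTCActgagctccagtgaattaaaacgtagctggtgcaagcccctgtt
Ppara: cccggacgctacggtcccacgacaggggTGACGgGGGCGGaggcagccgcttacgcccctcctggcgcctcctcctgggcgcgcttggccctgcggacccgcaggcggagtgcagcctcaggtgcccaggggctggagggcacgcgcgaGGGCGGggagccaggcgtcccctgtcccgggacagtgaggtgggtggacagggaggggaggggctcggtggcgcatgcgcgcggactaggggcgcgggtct
Pparg, first window: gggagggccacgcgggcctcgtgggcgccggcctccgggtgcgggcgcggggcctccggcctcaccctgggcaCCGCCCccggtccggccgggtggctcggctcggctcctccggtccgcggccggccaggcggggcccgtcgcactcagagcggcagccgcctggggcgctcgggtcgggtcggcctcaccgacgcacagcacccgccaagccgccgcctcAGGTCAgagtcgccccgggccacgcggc
Pparg, second window: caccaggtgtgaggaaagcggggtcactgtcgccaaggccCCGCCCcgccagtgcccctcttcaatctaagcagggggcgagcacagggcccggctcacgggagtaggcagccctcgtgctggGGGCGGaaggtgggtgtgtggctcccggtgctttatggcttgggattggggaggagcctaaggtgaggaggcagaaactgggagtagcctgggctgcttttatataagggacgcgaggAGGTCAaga
Both Pparg windows shown held an AGGTCA half-site, and the third Pparg window (chr6:115421816-115422065), not shown, held none of these 3 motifs. The Ppara and Ppargc1a windows held no AGGTCA and each held a TGACG half-site. Over the 15 windows of the 9 genes searched, 4 held AGGTCA, found in Pparg, Rxra and Rxrg, against 14.0% of 32851 windows of all genes. TGACG was in 3 of the 15, in Ppara, Ppargc1a and Rxrb, against 17.8% of all windows, and GGGCGG in 7 of the 15 against 32.7%. Direct repeats of the half-site with 1 base between (AGGTCANAGGTCA), the arrangement PPAR and RXR pairs bind, were in 0 of the 15 and in 0.0335% of all windows. Repeats with 4 bases between (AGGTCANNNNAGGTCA), the arrangement LXR and RXR pairs bind, were in 0 of the 15 and in 0.0152%. Overlaps between motifs were not removed, and a match is a match of letters only.

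To compare levels between genes, counts were divided by the length of each gene's exons (RPKM, reads per kilobase of exon, scaled to the library total). Nr1h2 was the most abundant at 21.3 RPKM, followed by Pparg at 20.2, Rxrb at 13.4, Rxra at 13.2, Nr1h3 at 10.05 and Ppard at 7.36 (means over 10 tumours). Below them came Ppargc1a at 2.01, Ppara at 1.29, Ppargc1b at 0.920 and Rxrg at 0.792 RPKM. Nr1h2 exceeded Pparg in 7 of 10 tumours, Rxrb exceeded Rxra in only 3 of 10 in spite of its higher mean, and Ppargc1b exceeded Rxrg in 5 of 10, so these neighbours were not separated by more than their spread. Nr1h3 exceeded Ppard, and Ppard exceeded Ppargc1a, in 10 of 10 tumours. Divided by the longest transcript instead, Ppard was at 14.8 RPKM, level with Rxra at 14.7 and above Nr1h3 at 12.7. Its place among the receptors, and its order against Nr1h3, thus depend on the length used. Rxrb was at 20.3 RPKM by that length, above Rxra. Ppara among the PPARs and Rxrg among the RXRs thus were minor members, whereas Nr1h3, the lower LXR, was still at 10.05 RPKM.

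**Figure D1:**
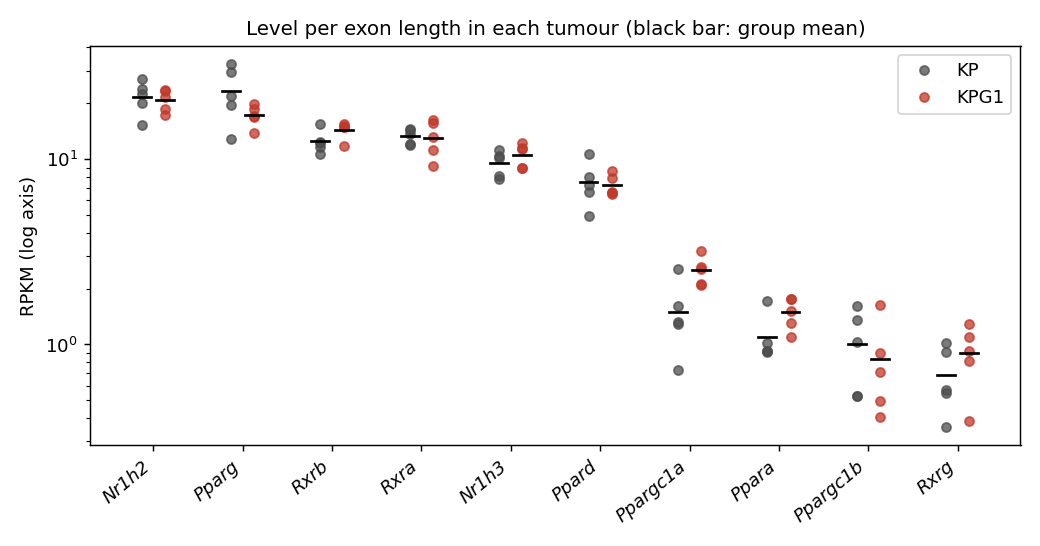
RPKM on a log axis for the 10 genes in each tumour, ordered by mean level, with KP in grey and KPG1 in red (5 tumours each) and a black bar at the group mean. The 6 receptors from Nr1h2 to Ppard have means between 7.36 and 21.3 RPKM, whereas both coactivators, Ppara and Rxrg have means of 2.01 RPKM or less.

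None of the 10 genes differed between KPG1 and KP past the threshold of an adjusted p of 0.05 (limma-voom, Benjamini-Hochberg over 16216 genes), in a comparison that called 0.173% of all genes tested, 0.0617% higher and 0.111% lower. At an unadjusted limma p under 0.05, 1 of 10 was higher, Ppargc1a, and 0 were lower, against 11.6% of all genes (5.26% higher and 6.31% lower). All 10 genes overlapped between the groups, where 2.81% of all genes did not. Without KP 5, 0 of 10 passed the adjusted threshold, against 1.78% of genes. Then 3 had an unadjusted p under 0.05 (18.6% of genes): Ppargc1a and Ppara were higher and Pparg was lower. Ppargc1a and Ppara no longer overlapped between the groups, as for 7.88% of all genes (3.64% higher, 4.24% lower). Fitted values were positive for 5 genes and negative for 5, with a median log2 fold change (KPG1 minus KP) of 0.07 beside 0.02 over all genes tested. In bulk RNA, fewer cells of a type and less RNA per cell cannot be told apart.

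**Figure D2:**
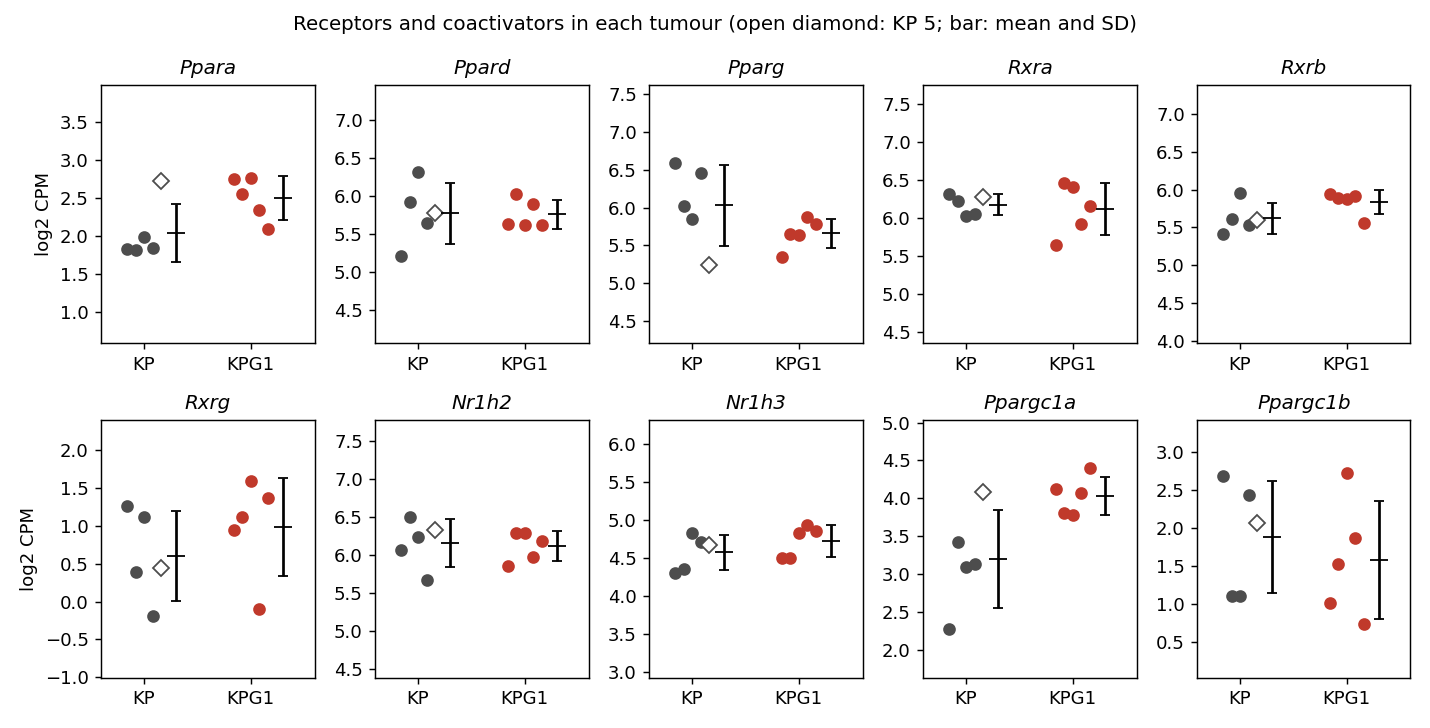
log2 CPM of each gene in the 5 KP (grey) and 5 KPG1 (red) tumours, with KP 5 as an open diamond and the mean and SD beside the points; every panel spans the same number of log2 units. KP 5 lies at the top of its group for Ppara and Ppargc1a and at the bottom for Pparg.

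Gene positions are those of GENCODE M21 on build GRCm38. Among the PPARs, Ppara, the receptor of fatty acid oxidation (chr15:85734983-85802819), was at 1.84, 1.82, 1.99, 1.84 and 2.73 log2 CPM in KP 1 to KP 5 and at 2.76, 2.56, 2.77, 2.34 and 2.09 in KPG1 1 to KPG1 5. Every KPG1 tumour was above 4 of the controls, and KP 5 lay among the KPG1 values. These levels rest on 111 to 307 reads per tumour. The fitted log2 fold change was 0.46 (SE 0.23, 95% interval -0.05 to 0.98, limma adjusted p = 0.478). Without KP 5 it was 0.63 (SE 0.20, adjusted p = 0.137) and the groups no longer overlapped.

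Pparg, the receptor of lipid storage (chr6:115360951-115490399), had the opposite order. It was at 6.59, 6.02, 5.85, 6.45 and 5.25 log2 CPM in KP 1 to KP 5 and at 5.35, 5.65, 5.64, 5.87 and 5.78 in KPG1 1 to KPG1 5. KP 1 and KP 4 were the highest of the 10 tumours and KP 5 the lowest, and the KPG1 tumours lay in a narrow range below the KP mean. Its log2 fold change was -0.37 (SE 0.23, 95% interval -0.88 to 0.13, limma adjusted p = 0.562). Without KP 5 it was -0.59 (SE 0.17, adjusted p = 0.112), and the groups still overlapped through KP 3 and KPG1 4. Without KP 1 it was -0.23, and without KP 4 it was -0.27. The SD of Pparg on the log2 scale was 0.53 in KP and 0.20 in KPG1, a contrast in spread that was not tested.

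Ppard, the broadly expressed PPAR (chr17:28232700-28301474), was at 5.21, 5.91, 6.31, 5.64 and 5.77 log2 CPM in KP 1 to KP 5 and at 5.63, 6.02, 5.62, 5.90 and 5.61 in KPG1 1 to KPG1 5. The KPG1 values lay inside the KP range, and the log2 fold change was -0.01 (95% interval -0.43 to 0.40, limma adjusted p = 0.986), with a sign that turned when single tumours were left out. Pparg supplied most PPAR RNA per length in both groups, 71.4% ± 10.96 (SD, n = 5) in KP and 66.2% ± 3.72 in KPG1, and Ppara supplied 3.79% ± 2.30 and 5.84% ± 1.58. The 3 PPARs together were at 31.9 ± 6.57 RPKM in KP and 25.9 ± 2.54 in KPG1, ranges that overlapped.

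Rxra, the main RXR of many epithelia (chr2:27676440-27762957), was at 6.32, 6.23, 6.02, 6.05 and 6.29 log2 CPM in KP 1 to KP 5 and at 5.65, 6.46, 6.41, 5.93 and 6.16 in KPG1 1 to KPG1 5. The KPG1 tumours were both the lowest and the highest, and the log2 fold change was -0.06 (95% interval -0.41 to 0.30, limma adjusted p = 0.920). Rxrb (chr17:34031812-34038399) was at 5.41, 5.62, 5.95, 5.54 and 5.59 in KP 1 to KP 5 and at 5.95, 5.88, 5.88, 5.91 and 5.55 in KPG1 1 to KPG1 5. In KPG1, 4 of 5 tumours were close to the highest control, KP 3, and KPG1 5 lay with the other controls. The log2 fold change of Rxrb was 0.22 (95% interval -0.07 to 0.50, limma adjusted p = 0.548).

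Rxrg, the RXR best known from muscle and brain (chr1:167598384-167639623), was near the lower end of detection, with 97, 40, 78, 35 and 57 reads in KP 1 to KP 5 and 86, 82, 130, 31 and 98 reads in KPG1 1 to KPG1 5. KP 4 and KPG1 4 were the lowest of their groups, and the ranges overlapped almost fully. The log2 fold change of 0.41 had a wide 95% interval, -0.43 to 1.25 (limma adjusted p = 0.720), and its value ran from 0.19 without KP 4 to 0.67 without KPG1 4. By exon length, Rxra and Rxrb each supplied close to the same RXR RNA, 50.4% ± 5.11 and 47.0% ± 5.18 in KP and 45.6% ± 6.46 and 51.2% ± 7.03 in KPG1. By the longest transcript, Rxrb was at 20.3 RPKM and Rxra at 14.7, so this near balance depends on the length used. The RXR total was 26.5 ± 1.52 RPKM in KP and 28.4 ± 3.16 in KPG1.

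Of the LXRs, Nr1h2, the ubiquitous form (chr7:44549616-44553951), was at 6.07, 6.497, 6.24, 5.67 and 6.33 log2 CPM in KP 1 to KP 5 and at 5.86, 6.29, 6.30, 5.97 and 6.18 in KPG1 1 to KPG1 5. Nr1h3, the form enriched in liver and macrophages (chr2:91184061-91202834), was at 4.30, 4.36, 4.83, 4.70 and 4.67 in KP 1 to KP 5 and at 4.50, 4.50, 4.83, 4.94 and 4.86 in KPG1 1 to KPG1 5. For both genes the groups lay over each other, with KP 4 the lowest for Nr1h2 and KP 1 the lowest for Nr1h3. The log2 fold changes were -0.04 for Nr1h2 (95% interval -0.40 to 0.32, limma adjusted p = 0.947) and 0.15 for Nr1h3 (95% interval -0.18 to 0.47, limma adjusted p = 0.745). Exons of Nr1h3 overlap those of Gm13783 on the same strand, so reads there may be uncounted or assigned to the other gene. The level of Nr1h3 and its share of LXR RNA carry that limit. The LXR total was 31.2 ± 4.26 RPKM in KP and 31.4 ± 3.21 in KPG1, of which Nr1h2 made 69.0% ± 6.45 and 66.3% ± 4.19. The LXR intervals were among the narrowest of the 10 genes and leave room for a change of up to 0.47 log2 units.

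Ppargc1a, the coactivator PGC-1 alpha, which drives mitochondrial biogenesis (chr5:51454250-51567726), had the highest fitted fold change of the 10 genes. It was at 2.28, 3.42, 3.09, 3.13 and 4.08 log2 CPM in KP 1 to KP 5, from 199 to 735 reads, and at 4.12, 3.81, 3.78, 4.07 and 4.40 in KPG1 1 to KPG1 5, from 542 to 818 reads. All 5 KPG1 tumours were above 4 of the controls, and KP 5 alone reached into the KPG1 range. The log2 fold change was 0.84 (SE 0.28, 95% interval 0.23 to 1.45, limma unadjusted p = 0.0115, adjusted p = 0.282), which is 1.79-fold with an interval of 1.17 to 2.73. Without KP 5 it was 1.06 (SE 0.24, adjusted p = 0.0527), still short of the threshold, and the groups did not overlap. Without KP 1, the lowest control, it was 0.60.

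Ppargc1b, its paralogue PGC-1 beta (chr18:61298136-61400431), had 266, 67, 78, 228 and 180 reads in KP 1 to KP 5 and 90, 110, 289, 126 and 63 reads in KPG1 1 to KPG1 5. High and low tumours occurred in both groups, with KPG1 3, KP 1 and KP 4 at the top and KPG1 5 at the bottom. The log2 fold change was -0.34 with the widest 95% interval of the 10 genes, -1.30 to 0.62 (limma adjusted p = 0.810), and ran from -0.64 without KPG1 3 to -0.13 without KPG1 5. Ppargc1a made 59.6% ± 18.9 of the PGC-1 RNA per length in KP and 75.5% ± 12.6 in KPG1, and in KP 1 it made only 31.2%. The PGC-1 total was 2.51 ± 0.681 RPKM in KP and 3.35 ± 0.361 in KPG1.

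**Figure D3:**
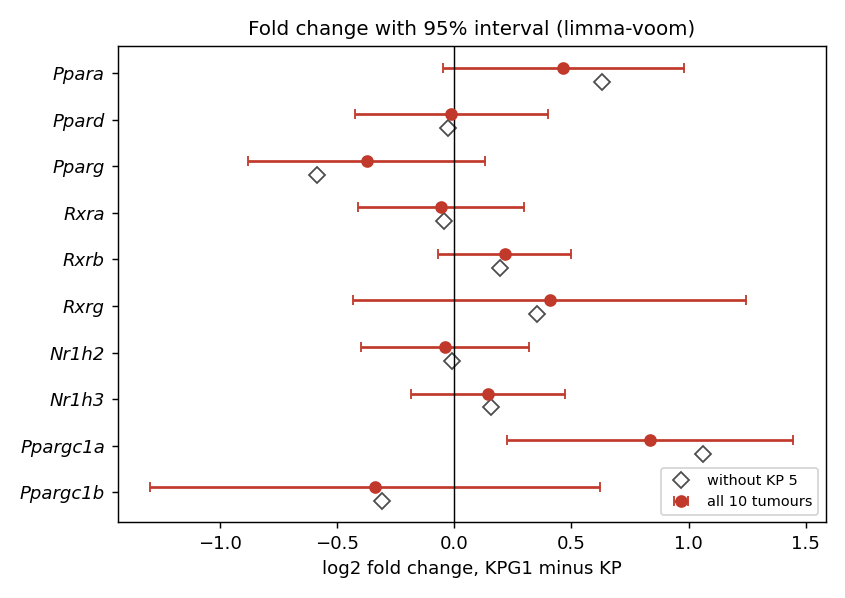
Log2 fold change (KPG1 minus KP) of each gene with its 95% interval from limma-voom over all 10 tumours (red), and the value without KP 5 (open diamond). The interval of Ppargc1a, 0.23 to 1.45, is the only one of the 10 that does not contain 0 before adjustment over all genes.

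Between tumours, 1 of 45 pairs of the genes varied together past an adjusted p of 0.05. Ppara and Pparg varied in opposite directions over the 10 tumours, with r = -0.85 (Pearson, permutation p = 0.0004, adjusted p = 0.018) and rho = -0.88 (Spearman, permutation p = 0.00148, adjusted p = 0.0666). Without KPG1 1 and KPG1 3, the tumours farthest from the median of Ppara, r was -0.84. After the mean of each group was subtracted, r was -0.81 (permutation p = 0.00519, adjusted p = 0.234), so within groups the relation did not pass. When each tumour was left out in turn, r ran from -0.88 to -0.82, and its adjusted p ran from 0.0131 to 0.194 and missed 0.05 without KP 5, KPG1 1, KPG1 2 or KPG1 4. Neither group holds enough tumours for an r of its own. In RNA terms, the log2 ratio of Ppara to Pparg CPM ran from -4.75 in KP 1 to -2.52 in KP 5 and from -3.69 to -2.60 in KPG1.

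Ppargc1a also ran against Pparg, with r = -0.80 and rho = -0.70 (permutation p = 0.00538 and 0.0306, adjusted p = 0.121 and 0.67), and r was -0.47 without KP 1 and KP 4, so that relation rests on those tumours. Ppara and Ppargc1a had r = 0.65 and rho = 0.60 (permutation p = 0.0376 and 0.0745, adjusted p = 0.477 and 0.67). KP 5 and KPG1 1 were at one end, with low Pparg, high Ppara and high Ppargc1a, and KP 1 was at the other.

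**Figure D4:**
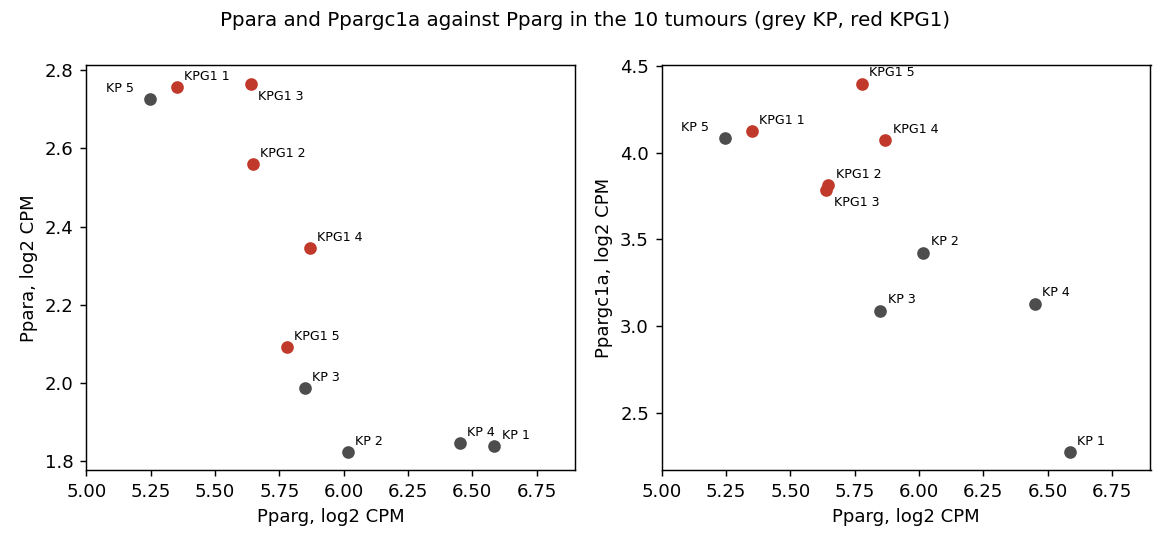
Ppara (left) and Ppargc1a (right) against Pparg in log2 CPM, 1 labelled point per tumour, KP in grey and KPG1 in red. KP 5 sits beside KPG1 1 at low Pparg in both panels, and KP 1, with the highest Pparg at 6.59, has the lowest Ppargc1a at 2.28.

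Among 12877 genes searched for a pattern like that of each gene, those most like Ppara over the 10 tumours were Gabpb1 (r = 0.954) and Usp49 (0.945), and those most like Pparg were Tma16 and Ddx19a (both 0.961). Most like Ppargc1a were Abhd17b (0.955) and Copz2 (0.953), and most like Nr1h3 were Eif1b (0.962) and 2410131K14Rik (0.949). Gabpb1, a subunit of the nuclear respiratory factor GABP, also stood on the list of PGC-1 partners. These r values are descriptions, the highest of many, over tumours that share 2 groups and the same large difference between KP 1 and KP 5.

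Markers of cell types were set beside these values, with counts at an unadjusted limma p under 0.05 (5.26% of all genes higher and 6.31% lower, and without KP 5 1402 higher and 1655 lower of 16476). All 10 alveolar type 2 markers had positive fitted values, 4 of them past that p (Sftpc, Abca3, Slc34a2 and Lpcat1), with a median log2 fold change of 0.62. Without KP 5, 6 passed it and the median was 0.70. Their summed level was 19029 to 63891 CPM in KP, where KP 5 was the highest, and 49223 to 89277 CPM in KPG1. Ppargc1a ran with that sum at r = 0.83 and rho = 0.85 (permutation p = 0.00374 and 0.0028, adjusted p = 0.0986 and 0.224), and r was 0.73 without KP 1 and KP 3. Pparg ran against it at r = -0.86 and rho = -0.75 (permutation p = 0.00252 and 0.0172, adjusted p = 0.0986 and 0.344), with r = -0.44 without KP 1 and KP 4. Ppargc1b also ran against that sum, at r = -0.72 and rho = -0.67 (permutation p = 0.00893 and 0.0379, adjusted p = 0.143 and 0.499). Its r was -0.67 without KP 1 and KPG1 3. Rxrb had r = 0.65 and rho = 0.36 with the sum (permutation p = 0.0253 and 0.313, adjusted p = 0.253 and 0.93). Its r was 0.06 without KP 1 and KP 4. The part of alveolar type 2 RNA in the values of these genes was not tested.

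Of 80 pairs of a gene and a cell type list, 1 passed: Ppargc1a against the adipocyte list, r = -0.90 (permutation p = 0.00052, adjusted p = 0.0416) and rho = -0.77 (permutation p = 0.0125, adjusted p = 0.333), with r = -0.86 without KP 1 and KP 3. After group means were subtracted, r was -0.88 (adjusted p = 0.475), and with single tumours left out r ran from -0.93 to -0.79 and passed only without KP 3. Pparg ran with the same list at r = 0.82 and rho = 0.55 (permutation p = 0.00493 and 0.106, adjusted p = 0.0986 and 0.93). Its r was 0.33 without KP 1 and KP 4. Only 1 of the 6 adipocyte markers passed the filter, Cidec, itself a known PPAR gamma target, while Lep had 0 reads in each tumour and Adipoq, Plin1, Retn and Cfd had at most 18. The adipocyte sum, 0.666 to 12.9 CPM in KP and 0.457 to 2.35 CPM in KPG1, is therefore in the main a reading of Cidec.

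Alveolar macrophages, which carry high PPAR gamma, had 12 of 12 markers tested, 1 higher (Krt79) and 1 lower (Chil3) at that p and a median of -0.28 (0 and 2, and -0.41, without KP 5). Their sums were 87.9 to 213 CPM in KP and 64.3 to 167 CPM in KPG1. Highest in them were Chil3, Krt79 and Car4, at means of 34.6, 23.7 and 22.6 CPM, while Marco and Siglecf were at 0.626 and 0.477 CPM. Fabp4, at a mean of 10.8 CPM in this sum, is also a known PPAR gamma target. Pparg had r = 0.37 and rho = 0.33 with that sum (permutation p = 0.301 and 0.351, adjusted p = 0.777 and 0.999, r = 0.03 without KP 1 and KP 4). Other leukocyte markers had 0 of 11 tested higher and 3 lower (S100a8, S100a9 and Itgam), a median of -0.25 (4 lower and -0.43 without KP 5) and sums of 42.0 to 109 CPM in KP and 36.4 to 88.9 CPM in KPG1. Ppargc1a ran against both sums, at r = -0.67 and rho = -0.65 for alveolar macrophages (permutation p = 0.0319 and 0.0499, adjusted p = 0.284 and 0.499). For other leukocytes it had r = -0.72 and rho = -0.79 (permutation p = 0.017 and 0.00907, adjusted p = 0.227 and 0.333). Without KP 1 and KP 3, r was -0.50 and -0.55. The part of these cells in the values of Pparg and Ppargc1a was not tested.

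Endothelial markers had 0 of 10 past that p, 10 of 10 positive fitted values, a median of 0.31 (0.06 without KP 5) and sums of 411 to 1233 CPM in KP and 575 to 1723 CPM in KPG1. Fibroblast markers had 2 of 9 tested higher (Dcn and Postn), a median of 0.44 (0 higher and 0.33 without KP 5) and sums of 157 to 330 CPM and 219 to 398 CPM. Striated muscle, a tissue rich in Rxrg and Ppargc1a, had 5 of 10 markers tested, 1 of them lower (Tnnt2), and a median of -0.11 (2 lower and -0.45 without KP 5). Its sum of 425 to 1275 CPM in KP and 657 to 1023 CPM in KPG1 was almost all Myh7, at a mean of 851 CPM, while the defining Ckm and Mb were at 0.167 and 0.182 CPM. Club and ciliated cell markers had 1 of 8 higher (Cyp2f2) and 1 lower (Foxj1), a median of -0.06 (-0.11 without KP 5) and sums of 39.0 to 184 CPM in KP and 132 to 319 CPM in KPG1. Rxrg ran with this sum at r = 0.69 and rho = 0.66 (permutation p = 0.0235 and 0.0443, adjusted p = 0.253 and 0.499). Its r was 0.67 without KP 4 and KPG1 4. KP 5 had the lowest alveolar macrophage, other leukocyte, endothelial and fibroblast sums of the KP group.

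Around the receptors, 8 lists of pathway genes were read from the same fit. The lists held 9 to 29 tested genes each. They share some genes, among them Plin2, Lpl and Scd1, and Nr1h3 itself is on the LXR target list. The lists were also chosen with earlier results of these data known. Their counts and medians are therefore not independent readings. In any of the lists, 0 genes passed a limma adjusted p of 0.05, beside 0.173% of all genes. Without KP 5, 4 did (Thrb, Nr4a1, Ptgs2 and Creb3l3), beside 1.78% of all genes. DESeq2 called 4 (Nr4a1, Ptgs2, Creb3l3 and Cidea), beside 125 higher and 423 lower over all 16216 genes. A quality weight per sample gave 3 (Nr4a1, Thrb and Ptgs2), beside 51 higher and 177 lower. edgeR called 0, beside 11 higher and 29 lower. The counts that follow are at an unadjusted limma p under 0.05, beside 5.26% of all genes higher and 6.31% lower. Counts without KP 5 stand beside 1402 higher and 1655 lower of 16476 genes in that fit, 18.6% together. Coactivators had 0 of 14 genes past it and a median log2 fold change of 0.00 (2 higher, 1 lower and 0.06 without KP 5), and corepressors had 0 of 9 and a median of 0.06 (0 and 0.01). Med1, the Mediator subunit that meets liganded receptors, had a log2 fold change of 0.11, and the corepressor Ncor1 had 0.17. The medians of both cofactor lists thus stood close to the median of all genes, 0.02, while single genes ran from -0.35 (Nrip1) to 0.24 (Pprc1).

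Other partners of RXR had 1 of 11 genes higher and 2 lower, with a median of 0.00 (1, 2 and -0.01 without KP 5). Nr4a1, an early response receptor, was at 7.79 to 8.85 log2 CPM in KP and 6.49 to 7.71 in KPG1, without overlap. Its log2 fold change was -1.37 (SE 0.29, limma adjusted p = 0.0916, and 0.0333 without KP 5). Thrb, a thyroid hormone receptor, was at 4.30 to 5.88 in KP and 5.27 to 5.74 in KPG1. Its log2 fold change was 0.68 (limma adjusted p = 0.361). Without KP 5 the value was 0.96 (adjusted p = 0.0220). The second lower gene was Nr1h4, the bile acid receptor, at -1.14 (limma adjusted p = 0.419), named after its value was seen. Nr1h4 had only 12 to 141 reads per tumour, a mean of 1.22 CPM.

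Genes that supply ligands and carry fatty acids had 2 of 21 tested genes higher and 1 lower, with a median of 0.06 (3 higher, 4 lower and -0.04 without KP 5). Slc27a1, a fatty acid transporter, was at 4.82 to 5.27 log2 CPM in KP and 5.26 to 5.58 in KPG1 (log2 fold change 0.40, limma adjusted p = 0.245). Ptgs2, the inducible cyclooxygenase, was at 5.58 in KP 5 and 7.62 to 8.34 in the other controls, and at 5.54 to 6.78 in KPG1. Its log2 fold change was -1.30 (limma adjusted p = 0.325), and -1.77 without KP 5 (adjusted p = 0.0261). Cyp7b1, an oxysterol hydroxylase named after its value was seen, had 1.20 at a mean of 0.574 CPM.

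Known PPAR alpha targets had 2 of 29 tested genes higher and 3 lower, with a median log2 fold change of 0.07 (3, 5 and 0.06 without KP 5). Acadl and Hsd17b4, enzymes of fatty acid oxidation, had fitted values of 0.33 and 0.32 (limma adjusted p = 0.371 and 0.417), and Ech1, of the same pathway, had -0.35 (0.407). Angptl4, a secreted lipase inhibitor that PPARs induce, had -0.82 (limma adjusted p = 0.352), and -1.06 without KP 5 (adjusted p = 0.0836). Creb3l3, a factor of lipid metabolism, had -2.04 (limma adjusted p = 0.240, and 0.0397 without KP 5). Its level was low, at 16 to 295 reads per tumour and -1.32 to -0.11 log2 CPM in KPG1. Hsd17b4 and Creb3l3 were named after their values were seen. Cpt1a, the gatekeeper of mitochondrial fatty acid entry, had -0.12, and Pdk4 had -1.37 with KP tumours spread from 4.01 to 7.84 log2 CPM. Plin2, a lipid droplet coat protein, had -0.26, and -0.60 without KP 5 (limma adjusted p = 0.124). Enzymes of the same pathway thus stood on both sides of 0.

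Known PPAR gamma targets had 0 of 19 tested genes higher and 5 lower at an unadjusted p under 0.05, with a median of -0.14. Without KP 5, 1 was higher and 7 were lower, and the median was -0.37, beside 1655 of 16476 genes lower in that fit. The 5 were Tsc22d1 (-0.50, limma adjusted p = 0.312), Olr1 (-1.11, 0.330), Klf11 (-0.61, 0.373) and, named after their values were seen, Cidea (-1.52 to 1.80 log2 CPM in KP and -2.30 to -1.48 in KPG1, 0.314) and Cd300lf (-1.06, 0.376). Tsc22d1 and Klf11 are transcriptional regulators, Olr1 is a scavenger receptor, Cidea coats lipid droplets and Cd300lf is a receptor of myeloid cells. Fabp4, Cd36 and Lpl, markers of fatty acid uptake and storage, had 0.06, 0.51 and -0.29, the first with a sign that turned in edgeR and DESeq2 and the last without KP 1, and Plin1 and Adipoq were too low to test.

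Known LXR targets had 2 of 24 genes higher and 1 lower, with a median of 0.05 (2, 1 and 0.17 without KP 5). Fasn, the fatty acid synthase, was at 9.13 to 10.42 log2 CPM in KP and 10.06 to 10.78 in KPG1 (log2 fold change 0.72, limma adjusted p = 0.311). Lpcat3, which remodels membrane phospholipids, had 0.33 (limma adjusted p = 0.388), and Tlcd2 had -0.71 (0.426). The sterol efflux transporters Abca1 and Abcg1 had -0.11 and -0.15, Srebf1, which drives fatty acid synthesis, had 0.13 and Mylip, which degrades the LDL receptor, had 0.03, each with a sign that turned when single tumours were left out.

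PGC-1 partners and mitochondrial targets had 3 of 20 tested genes higher and 0 lower, with a median of 0.03. They were Tfb1m, a mitochondrial transcription factor, at 0.63 (limma adjusted p = 0.317), Polrmt, the mitochondrial RNA polymerase, at 0.53 (0.411) and Gabpb1 at 0.32 (0.428). Esrra, the main nuclear receptor partner of PGC-1 alpha, had -0.00 and Tfam, the packaging factor of mitochondrial DNA, had 0.13 (limma adjusted p = 0.998 and 0.747). Without KP 5, 2 of the listed genes were higher and the median was -0.02.

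**Figure D5:**
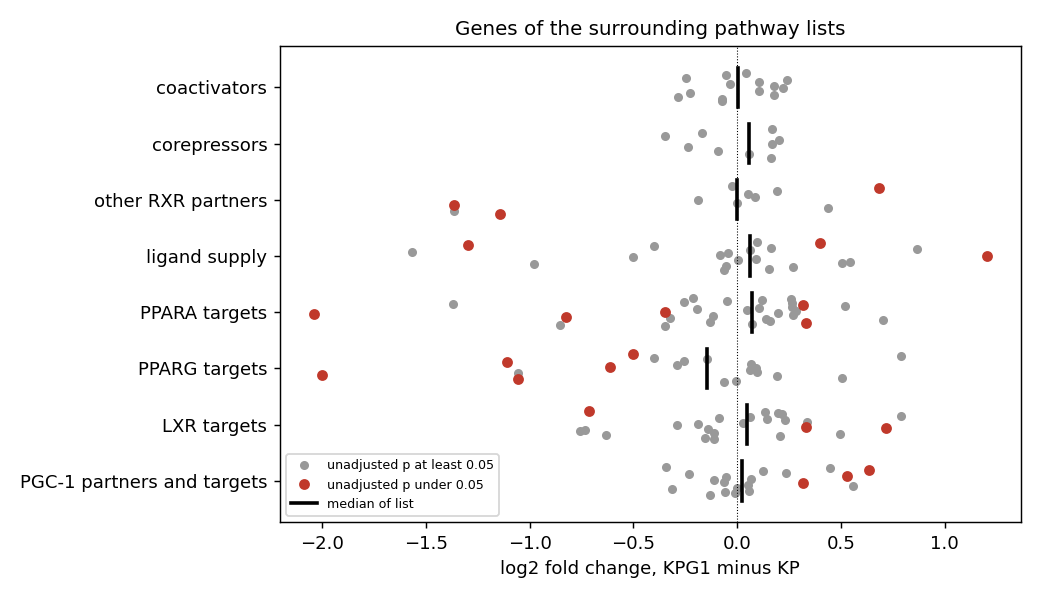
Log2 fold change (KPG1 minus KP) of each tested gene in the 8 pathway lists, red where the unadjusted limma p is under 0.05, with a black line at the list's median. The medians lie between -0.14 (PPAR gamma targets) and 0.07 (PPAR alpha targets), and the red points of the PPAR gamma targets are all below 0.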

How the data were processed

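RNA was sequenced from CD45-depleted cells of 10 lung tumours (5 KP, 5 KPG1). Per the labels, libraries were stranded and poly(A)-selected and read as single ends of 85 nt. The submitters' processing notes name bcl2fastq 2.17, cutadapt 1.4.2, HISAT2, featureCounts 1.4.4 and edgeR with build mm10. The study's methods give another Cutadapt version. The strand setting and annotation release of the counting are not given in the sources used here. The authors deposited raw read counts per gene, as 1 table and as a file per tumour, whose 390170 values were equal. A further deposited table holds the authors' log2 fold changes and p-values and was not used for any result.

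Counts were analysed with limma 3.58.1 and edgeR 4.0.16 in R 4.3.3: filterByExpr left 16216 of 39017 genes, followed by TMM factors, voom, a 2-group fit, empirical Bayes and Benjamini-Hochberg adjustment, two-sided, with no covariate. The script was tested on simulated counts. Levels in log2 CPM used a prior count of 2, and RPKM used the exon union of GENCODE M21. Totals of 32427029 to 49534284 reads set the counting precision. No 2 libraries of a group differed by so little as sampling noise (chi-square per degree of freedom at least 51.3). Correlations used 100000 permutations, with adjustment over 45 pairs of genes and over 80 pairs with cell type lists. Alternatives were DESeq2 1.42.0, edgeR's quasi-likelihood test, other size factors, filters, prior counts and weights, a replicate block, the sample number as a covariate, the longest transcript, and leaving out each tumour. The list counts, ranges and overlaps without KP 5 were added after seeing the data.

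The 10 genes and all lists were chosen with earlier results of these data known. Named were the 10 genes, Slc2a1, a set of standard targets of each receptor, up to 3 genes per list with the smallest unadjusted p under 0.05 and mean log2 CPM of at least 1, up to 2 markers per cell type list with the highest level, and the 2 genes with the most similar pattern. Some genes that this rule names are not reported here. For cell types, further markers were named after their values were seen. Sequences came from RefSeq promoter windows of GRCm38.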

Additional observations from a re-analysis of the deposited data

Results flagged for a closer look

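Within groups of 5 tumours, 116 sets of values of the genes named and their markers were searched for a highest or lowest tumour far from the rest (Dixon's test at 95%, critical value 0.71). It picked 5 sets, where chance would give about 1 in 20, or 5.8, and 3 of the 5 were KP 5. Ppara was at 2.73 log2 CPM in KP 5 and at 1.82 to 1.99 in the other controls. Ptgs2 was at 5.58 in KP 5 and at 7.62 to 8.34 in the others, and Plin2 was at 5.97 in KP 5 and at 7.38 to 7.86 in the others. Rxrb was at 5.55 in KPG1 5 and at 5.88 to 5.95 in the other KPG1 tumours. Itgax, an integrin of myeloid cells, was at 4.58 in KP 3 and at 2.61 to 3.11 in the other controls.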

How the results depend on the processing

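For the 10 genes, 0 of 180 values under 18 alternatives passed an adjusted p of 0.05, and 170 kept their sign, though their size moved. With single tumours left out, Ppard ran from -0.15 to 0.11, Rxra from -0.15 to 0.047 and Nr1h2 from -0.16 to 0.040. A quality weight per sample gave 0.0082 for Rxra and 0.018 for Ppargc1b. Over all genes, 10 were called higher and 18 lower. The counts higher and lower were 125 and 423 with DESeq2 and 51 and 177 with quality weights. With the sample number fitted, both were 4. A mean CPM of at least 1 gave 6 higher, edgeR gave 29 lower and no filter gave 31 lower. Leaving out single tumours gave 3 to 71 higher and 1 to 223 lower, the highest of both without KP 5. The replicate block gave 4 higher and 1 lower and -0.023 for Fabp4. The replicate numbers mark no shared origin in the labels, and 0 of 5 KPG1 tumours correlated best with the control of the same number (r of -0.16 to 0.08). Slc2a1 passed with DESeq2 (-1.04), with quality weights (-1.13) and without KP 5, and its values without single tumours ran from -1.14 to -0.92.

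List medians were -0.20 for coactivators and -0.14 for other RXR partners with the sample number, and -0.42 for PPAR gamma targets with quality weights. Without single tumours they ran from -0.37 to -0.039 for PPAR gamma targets and from -0.10 to 0.17 for LXR targets. With the sample number, fitted values turned to 0.12 for Cpt1a, 0.46 for Plin2, 0.45 for Abcg1, -0.79 for Mylip, 0.012 for Esrra and -0.054 for Ncor1. Fabp4 was -0.070 with edgeR, -0.074 with DESeq2 and -0.48 with quality weights, and Esrra was 0.0085 with no filter. Without single tumours, Fabp4 ran from -0.37 to 0.32, Lpl from -0.71 to 0.35, Abca1 from -0.26 to 0.026, Abcg1 from -0.46 to 0.0099, Srebf1 from -0.017 to 0.24, Mylip from -0.16 to 0.25 and Esrra from -0.13 to 0.12. Correlated pairs of genes numbered 0 with group means subtracted and 0 to 2 without single tumours, and pairs with cell type lists 0 and 0 to 1. With the longest transcript, levels were 14.8 RPKM for Ppard, 28.1 for Pparg, 20.3 for Rxrb, 35.7 for Nr1h2 and 12.7 for Nr1h3. The cause of these shifts was not tested. Low counts of Rxrg and Ppargc1b limit their precision.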
